A study of Mus musculus with 12 samples.

Results

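The genes described here build and steer the actin cytoskeleton of the macrophage, including the phagocytic cup, the actin-rich fold of membrane that closes around a particle. They were picked by symbol from a list of 43 genes drawn up by function, with earlier results of these data known. All 43 were found among the 11762 genes of the deposited table. All 43 also passed the filter on low values, which left 11745 genes for testing. The RNA came from J774A.1, a BALB/c mouse line with the properties of macrophages, and 3 biological replicates were sequenced in each of 4 groups. The groups were cells treated with microparticles (MP), cells treated with lipopolysaccharide (LPS), a bacterial cell wall component sensed by macrophages, cells treated with both (LPS+MP), and control cells, which the series text calls mock-treated and the sample labels call untreated. The sources hold no dose or exposure time for either agent and no composition of the microparticles, and a single cell line stands for the macrophage.

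All 10 macrophage markers looked for were in the table, with summed levels of 6467 to 6841 CPM in MP, 7954 to 9083 in LPS, 6331 to 6555 in LPS+MP and 6299 to 7014 in control libraries. Single markers moved in opposite ways within these sums. Mean Lyz2 was 2393 CPM in control and 982 in LPS+MP libraries, and mean Emr1 was 34.8 and 771. The sums of all 3 LPS libraries lay above those of the other groups, and the part of these marker levels in the results below was not tested. Of the marker lists of other cells, 1 of 7 fibroblast, 2 of 7 muscle, 2 of 3 endothelial and 0 of the epithelial, T cell and B cell markers were listed, and the highest value of any was 10.8 CPM, that of Pdgfra in an LPS library. LPS replicate 2 stood apart, with 339 genes over 1 (log2) away from the other libraries of its group, where each of the other 11 libraries had 1 to 29 such genes. In that library 5 of the 43 actin genes were over 0.5 away, and across the 43 genes the distance was more negative for transcripts of higher GC content (Spearman correlation of -0.59, a description within 1 library). For the 43 genes, values with and without it are given below for the named results that it changed, and its part in the others was not tested beyond leaving it out. Genes outside the 43, such as Srf and Marcksl1, were not refitted without it.

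Actin monomers assemble into filaments that grow mainly at one end and are taken apart at the other, and a phagocyte uses this cycle to push its membrane around a target. Surface receptors switch on small GTPases such as Rac and Cdc42 through exchange factors such as Vav and DOCK proteins, and the GTPases act on WASP and WAVE proteins, which turn on the Arp2/3 complex to start branches on existing filaments. Profilin delivers monomers, cofilin, gelsolin and capping proteins recycle, sever or cap filaments, and myosins, talin, vinculin and ERM proteins tie the network to motors, integrins and membrane.

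Levels are in CPM, reads scaled to the library total and not per gene length. Changes are on the scale of log2(CPM + 1), each with its standard error, from limma fitted to all 12 libraries, and adjusted p-values are Benjamini-Hochberg over the 11745 genes. Here rose and fell mean an adjusted p under 0.05, and 2-fold means in addition a change larger than 1 on that scale, the size the series text asks for. CPM is a share of a library, and in bulk RNA fewer cells of a type and less RNA per cell cannot be told apart.

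Actin cytoskeleton genes were mostly lower in treated than in control cells, few of them by 2-fold. The 43 genes together took 3.08% ± 0.072 of all values in MP, 2.93% ± 0.13 in LPS, 2.98% ± 0.066 in LPS+MP and 3.74% ± 0.097 in control libraries (SD, n = 3 each). The highest treated library, at 3.15%, lay below the lowest control library, at 3.64%. With MP, 19 of the 43 fell and 2 rose, where 18.3% of all genes tested fell and 20.6% rose. At 2-fold 1 fell, Gsn, and 0 rose, where 1.85% of all genes fell and 1.82% rose. Leaving LPS replicate 2 out of the shared fit made the number that rose with MP 4.

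With LPS, 28 of the 43 fell and 7 rose, where 35.6% of all genes fell and 26.6% rose. At 2-fold 3 fell, Gsn, Myo1f and Vcl, and 0 rose, where 8.05% of all genes fell and 8.3% rose. In LPS+MP against control cells 30 fell and 7 rose, where 38.6% of all genes fell and 27.7% rose. At 2-fold 3 fell, Gsn, Myo1f and Wipf1, and 1 rose, Ezr, where 12.3% of all genes fell and 8.52% rose. The median change of the 43 was -0.20 with MP, -0.43 with LPS and -0.40 with LPS+MP, beside medians over all genes of 0.02, -0.08 and -0.10. The control libraries are shared by these 3 comparisons.

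Adding MP to LPS gave falls in 23.3% of the 43 genes, near the share of all genes, and rises in 20.9%. In LPS+MP against LPS cells 10 of the 43 fell and 9 rose, where 22.2% of all genes fell and 13% rose, and the median was 0.00, beside -0.05 over all genes. At 2-fold 2 fell, Evl and Myo1f, and 0 rose, where 3.89% of all genes fell and 0.63% rose. With only the compared groups in the fit, 3 of the 43 rose and 6 fell without a size threshold. Single libraries moved these counts too: 4 rose without LPS+MP replicate 1, and 6 fell without LPS+MP replicate 2 and also without LPS+MP replicate 3. Without LPS replicate 2 the rise of Coro1a (0.14) and the falls of Actr2 (-0.13) and Tpm4 (-0.15) were lost, and a fall of Fmnl1 (-0.16) was gained. Adding LPS to MP, in LPS+MP against MP cells, gave 14 that fell and 9 that rose, where 36.6% of all genes fell and 19% rose. At 2-fold 1 fell, Myo1f, and 0 rose, where 7.88% of all genes fell and 5.71% rose. That split depended on scaling, with 22 falls and 7 rises under quantile normalization and 9 falls and 11 rises under median-ratio scaling. The shares of all genes above are for the values as deposited. None is given for those scalings, so whether the 43 departed from all genes there cannot be told from these counts. The median of all genes in LPS+MP against MP was -0.14 as deposited and -0.02 and -0.01 under those scalings, and that of the 43 genes -0.13, -0.25 and 0.02.

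**Figure D1:**
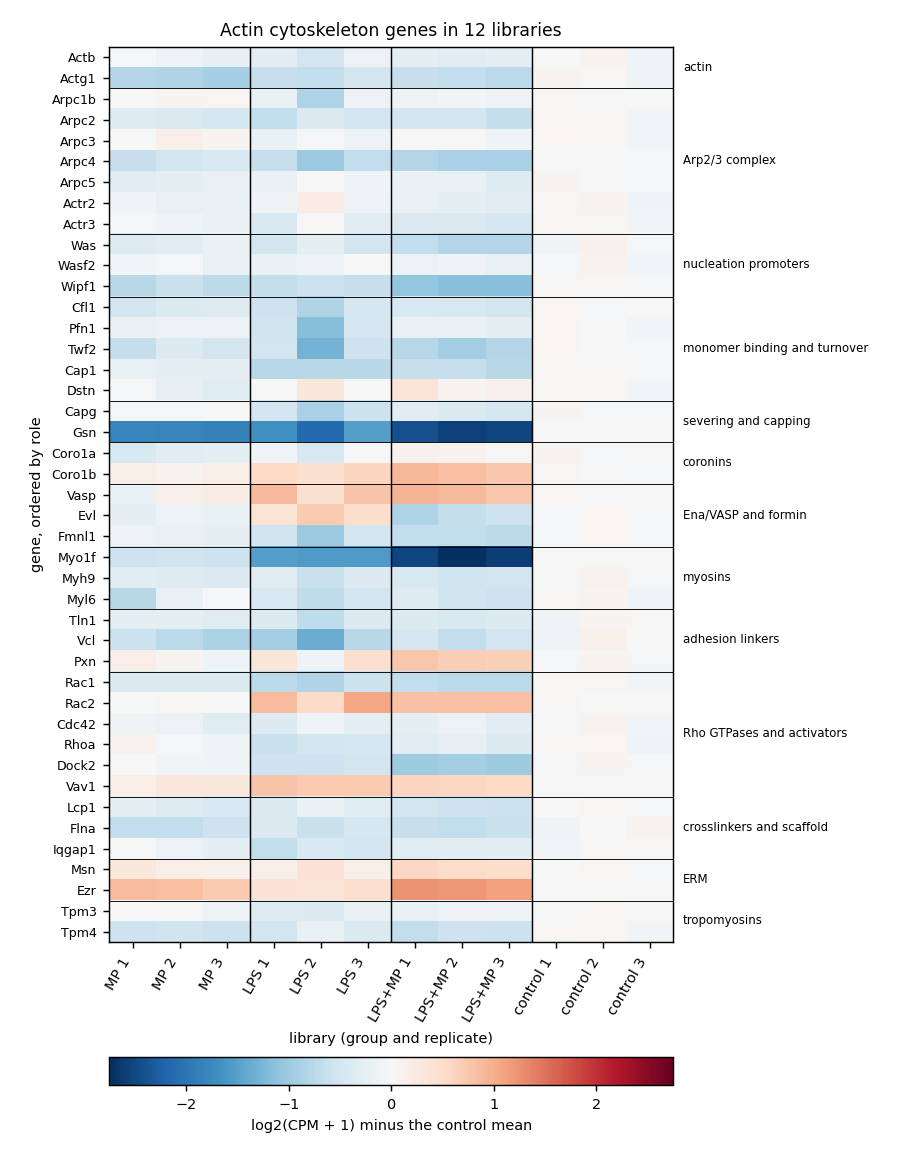
The 43 actin genes (rows, by role) in the 12 libraries (columns), coloured by log2(CPM + 1) minus the mean of the 3 control libraries, blue below it and red above it. Gsn and Myo1f are the darkest blue rows, Ezr in LPS+MP libraries is the reddest, and LPS replicate 2 differs from its group in rows such as Pfn1 and Twf2.

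Actin itself comes in non-muscle cells from Actb (beta-actin) and Actg1 (gamma-actin), whose proteins are nearly identical. Actg1 (ENSMUSG00000062825, chromosome 11, 120345690 to 120348542, minus strand) had 1999.5, 1975 and 1863 CPM in MP libraries, 2279, 2193 and 2492 in LPS libraries, 2247, 2197 and 2093 in LPS+MP libraries, and 3692, 3603 and 3255 in control libraries. All 9 treated libraries lay below all 3 control libraries, and the MP libraries were the lowest. Actg1 fell by 0.85 ± 0.08 with MP (adjusted p = 1.59e-06), by 0.60 ± 0.08 with LPS (adjusted p = 1.4e-05; -0.35 under quantile normalization) and by 0.69 ± 0.08 with LPS+MP (adjusted p = 2.5e-06). Actb (ENSMUSG00000029580, chromosome 5, 142903115 to 142906754, minus strand) had 5269, 4937 and 4645 CPM in MP libraries, 4412, 3825 and 4836 in LPS libraries, 4558, 4444 and 4479.6 in LPS+MP libraries, and 5457, 5783 and 5048 in control libraries. Its MP and control libraries overlapped, and the change with MP was -0.13 ± 0.10, adjusted p = 0.329. With LPS it fell by 0.32 ± 0.10 (adjusted p = 0.0129), a call lost with quantile normalization (-0.07), with median-ratio scaling (-0.24), with only the compared groups in the fit (-0.32) and without control replicate 2 (-0.28). The fall with LPS+MP, 0.27 ± 0.10 (adjusted p = 0.0297), was lost with quantile normalization (0.04), with median-ratio scaling (-0.16) and without control replicates 1 or 2 or LPS+MP replicates 1, 2 or 3 (-0.22 to -0.28), so its direction turned under quantile normalization. Under that scaling Actb in LPS+MP against MP cells also turned, to 0.42, where the value as deposited was -0.14 ± 0.10, adjusted p = 0.272.

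Within a library the ratio of Actg1 to Actb, in CPM, was 0.393 ± 0.012 in MP, 0.535 ± 0.033 in LPS, 0.485 ± 0.015 in LPS+MP and 0.648 ± 0.027 in control libraries (SD, n = 3 each). The lowest control ratio was 0.623 and the highest treated ratio 0.574. Per kb of transcript Actb was the higher of the pair in each group, at 2578 CPM per kb for Actb and 997 for Actg1 in MP cells, and 2828 and 1802 in control cells. Of the 50-base stretches of the Actg1 transcript 56.7% also occur in transcripts of other annotated genes, most of them in the predicted gene Gm12715, and for Actb the share was 14.2%. No source states how such reads were assigned, so values of these genes carry that uncertainty.

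Many cytoskeletal genes, actin genes among them, are controlled by serum response factor, which binds a DNA element named the CArG box and works with MRTF partners that sense the pool of free actin. The promoters of Actg1 and of the vinculin gene Vcl are shown as examples, 1 actin gene and 1 adhesion gene, that fell with each treatment and hold such a box, in capitals below. They are RefSeq sequences (GRCm38.p6), 5′ to 3′ on the strand of the gene, from 250 bases before to 50 bases after the transcript start, at chr11:120348446-120348745, minus strand, for Actg1 and chr14:20929148-20929447, plus strand, for Vcl.

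Actg1: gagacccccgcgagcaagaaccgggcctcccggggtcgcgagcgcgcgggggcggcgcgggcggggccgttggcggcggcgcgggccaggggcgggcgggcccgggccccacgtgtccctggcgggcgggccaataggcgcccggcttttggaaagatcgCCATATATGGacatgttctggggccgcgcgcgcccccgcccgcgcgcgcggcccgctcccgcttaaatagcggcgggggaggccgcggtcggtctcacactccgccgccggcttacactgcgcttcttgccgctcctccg

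Vcl: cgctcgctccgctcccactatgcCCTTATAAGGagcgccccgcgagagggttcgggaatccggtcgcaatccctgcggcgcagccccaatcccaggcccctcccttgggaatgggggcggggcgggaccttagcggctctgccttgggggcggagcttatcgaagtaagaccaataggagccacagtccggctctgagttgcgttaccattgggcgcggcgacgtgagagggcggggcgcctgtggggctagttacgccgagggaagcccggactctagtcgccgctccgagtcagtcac

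The box starts 90 bases before the transcript start of Actg1 and 227 bases before that of Vcl. Promoters were listed for 37 of the 43 genes, and 4 of these genes held a CArG box on either strand, the others being Myl6 (50 bases before the start) and Arpc4 (250 bases before it). Of these, Arpc4 also fell with each treatment. The box was in 8.51% of the 47 promoters of the list and in 1.63% of all 32851 promoters of that length. Other genes that fell with each treatment, such as Gsn, Myo1f, Wipf1, Cfl1, Rac1 and Tpm4, were not among the 4 with a box. Which of them are among the 37 with a listed promoter is not given here, so absence of a box is not shown for each. The motif was chosen with the expression values known, and a match in letters shows no binding. Whether serum response factor had a part in any of these changes was not tested. The gene of the factor itself, Srf, had 80.5, 85.5 and 83.4 CPM in MP libraries, 89.6, 56.9 and 84.6 in LPS libraries, 76.6, 72 and 77.6 in LPS+MP libraries, and 127, 131 and 133 in control libraries. Every treated library was below every control library. Srf fell by 0.64 ± 0.12 with MP (adjusted p = 0.00071), by 0.78 ± 0.12 with LPS (adjusted p = 4.88e-05) and by 0.78 ± 0.12 with LPS+MP (adjusted p = 3.85e-05). Mkl1, the symbol of the MRTF-A gene in the table, fell by 0.85 ± 0.11 with MP, and at 2-fold by 1.28 ± 0.11 with LPS and 1.24 ± 0.11 with LPS+MP. Mkl2, the gene of the related MRTF-B, fell by 0.34 ± 0.13 with LPS (adjusted p = 0.0313), and its changes with MP (-0.31 ± 0.13, adjusted p = 0.0654) and LPS+MP (-0.29 ± 0.13, adjusted p = 0.0535) did not pass.

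The Arp2/3 complex starts branched filaments and has 7 subunits. Of the 7 subunit genes listed, 3 fell with MP, 3 with LPS and 5 with LPS+MP, and 0 rose in any of these, beside shares of all genes that fell of 18.3%, 35.6% and 38.6%. Arpc4 (ENSMUSG00000079426, chromosome 6, 113378113 to 113390448, plus strand) had 277, 305 and 319.6 CPM in MP libraries, 277, 210.4 and 267 in LPS libraries, 247, 233 and 233 in LPS+MP libraries, and 437, 433 and 422 in control libraries. No treated library reached the control range. Arpc4 fell by 0.52 ± 0.09 with MP (adjusted p = 0.000369), by 0.78 ± 0.09 with LPS (adjusted p = 2.13e-06) and by 0.86 ± 0.09 with LPS+MP (adjusted p = 6e-07). Arpc2, whose product pairs with that of Arpc4 in the core of the complex, had 746, 725 and 680.0 CPM in MP libraries, 591, 717 and 657 in LPS libraries, 666, 654 and 603 in LPS+MP libraries, and 978, 976 and 899 in control libraries. Again no treated library reached control. Arpc2 fell by 0.41 ± 0.08 with MP (adjusted p = 0.000943), by 0.54 ± 0.08 with LPS (adjusted p = 2.74e-05) and by 0.57 ± 0.08 with LPS+MP (adjusted p = 1.33e-05).

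The other subunit genes moved less. Arpc3, a small subunit, had 145 to 159.7 CPM in MP, 129 to 141 in LPS, 135 to 148 in LPS+MP and 138 to 150.3 in control libraries and passed in no comparison. Actr2 and Actr3 encode the actin-related subunits Arp2 and Arp3, on which a new branch begins. With MP neither passed (-0.16 ± 0.09 and -0.12 ± 0.10), and in LPS+MP against control cells Actr3 fell by 0.41 ± 0.10 (adjusted p = 0.00131). Arpc1b, the form of its subunit that prevails in blood cells, fell with LPS by 0.39 ± 0.13 (adjusted p = 0.0154), a call lost with only the compared groups in the fit (-0.39). Its LPS libraries held 533, 338 and 544 CPM, and without LPS replicate 2, the low one, the change was -0.17. Arpc5 fell by 0.24 ± 0.07 with MP (adjusted p = 0.0151), a call lost without control replicate 1 or MP replicate 1 (-0.20 to -0.22). With LPS+MP the falls of Actr2 (-0.25) and Arpc5 (-0.24) were lost under median-ratio scaling (-0.14 and -0.13). That of Actr2 was also lost without control replicates 1 or 2 or LPS+MP replicate 3 (-0.22 to -0.24).

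Arpc5l, the paralogue of Arpc5 and not one of the 43, went up with MP where Arpc5 did not. It had 116, 113 and 110.3 CPM in MP libraries, 53.8, 70.4 and 63.8 in LPS libraries, 71.8, 70.4 and 62.4 in LPS+MP libraries, and 68.4, 63.4 and 60.6 in control libraries. MP libraries stood above those of every other group. Arpc5l rose by 0.81 ± 0.09 with MP (adjusted p = 8.6e-06), and in LPS+MP against LPS cells its change was 0.13 ± 0.09, adjusted p = 0.316. The ratio of Arpc5 to Arpc5l was 5.07 ± 0.27 in MP, 10.2 ± 0.8 in LPS, 8.42 ± 0.13 in LPS+MP and 10.6 ± 0.15 in control libraries (SD, n = 3 each). Per kb of transcript Arpc2 was the highest of the 7 listed subunits in each group, with 511 CPM per kb in MP, 466 in LPS, 457 in LPS+MP and 677 in control cells. Actr3 is uncertain in level, since 50.02% of its 50-base stretches occur in other annotated genes, mainly the predicted gene Gm8822.

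**Figure D2:**
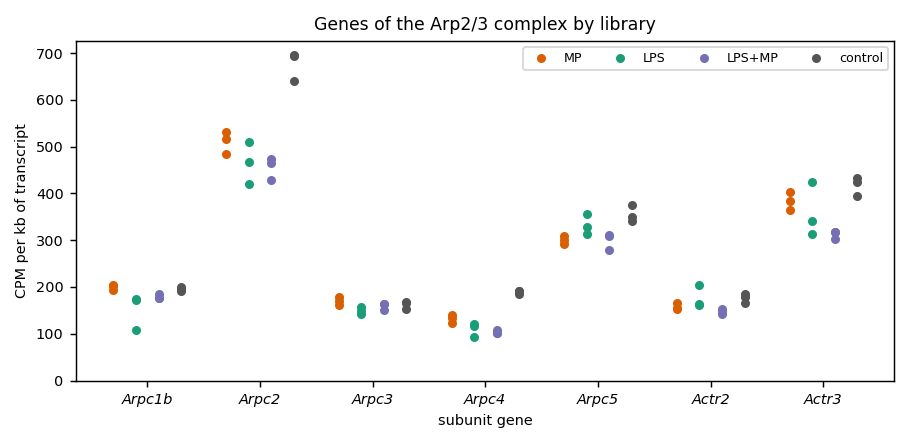
CPM per kb of transcript for the 7 listed genes of the Arp2/3 complex (horizontal axis), 1 point per library and 3 per group, coloured by group. For Arpc2 and Arpc4 all control points lie above all treated points, while the points of Arpc3 lie close together in the 4 groups.

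Nucleation-promoting factors tell the Arp2/3 complex where to act. Wipf1, which encodes WIP, the partner that stabilises WASP, had 84.4, 93.8 and 87.7 CPM in MP libraries, 91.2, 95.6 and 92.2 in LPS libraries, 69, 64.5 and 64.9 in LPS+MP libraries, and 148, 147 and 139 in control libraries. Treated libraries were all below control, and those with both agents were below those with either alone. Wipf1 fell by 0.70 ± 0.07 with MP (adjusted p = 1.32e-06), by 0.63 ± 0.07 with LPS (adjusted p = 7.7e-07) and, at 2-fold, by 1.11 ± 0.07 with LPS+MP (adjusted p = 5.93e-10). Was, the gene of WASP, the factor of blood cells, had 37.4, 33.8 and 34 CPM in LPS+MP libraries, and 55.9, 65.8 and 59.1 in control libraries. It fell by 0.76 ± 0.09 with LPS+MP (adjusted p = 2.9e-06) and by 0.43 ± 0.09 with LPS (adjusted p = 0.000975). The smaller fall with MP (-0.28 ± 0.09, adjusted p = 0.0259) was lost without control replicates 2 or 3 or MP replicates 1 or 2 (-0.22 to -0.29). Wasf2, which encodes the WAVE2 protein of membrane ruffles, lay between 276 and 340.2 CPM in all 12 libraries and passed in no comparison. Wasl, a family partner of Was, went the other way from it. Mean Wasl was 53.0 CPM in MP, 54.3 in LPS, 72.4 in LPS+MP and 40.0 in control libraries. Wasl rose by 0.40 ± 0.08 with MP (adjusted p = 0.00117) and by 0.43 ± 0.08 with LPS (adjusted p = 0.000249). With LPS+MP it rose by 0.84 ± 0.08 (adjusted p = 1.74e-07). The alternative runs did not include Wasl.

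Genes for monomer binding and filament turnover fell in 3 of 5 cases with MP, 4 with LPS and 3 with LPS+MP, beside 18.3%, 35.6% and 38.6% of all genes. Cap1, whose product helps cofilin to recycle actin, had 1058, 1019.8 and 1009 CPM in MP libraries, 711, 720.3 and 725 in LPS libraries, 793, 786 and 725 in LPS+MP libraries, and 1249, 1245 and 1178 in control libraries. Libraries with LPS were the lowest and MP libraries lay between them and control. Cap1 fell by 0.77 ± 0.07 with LPS (adjusted p = 6.15e-08) and by 0.67 ± 0.07 with LPS+MP (adjusted p = 2.09e-07), and its fall of 0.25 ± 0.07 with MP (adjusted p = 0.00685) was lost with quantile normalization (-0.12). Cfl1, non-muscle cofilin, which takes filaments apart, had 938, 1027 and 1039 CPM in MP libraries, 891, 748 and 944 in LPS libraries, 998, 979 and 927 in LPS+MP libraries, and 1373, 1297 and 1306 in control libraries. All treated libraries were below control, with falls of 0.41 ± 0.09 for MP (adjusted p = 0.00163), 0.63 ± 0.09 for LPS (adjusted p = 1.2e-05) and 0.45 ± 0.09 for LPS+MP (adjusted p = 0.00024). Dstn, destrin, a relative of cofilin, had 265 to 324 CPM in MP, 331 to 416 in LPS, 352 to 426 in LPS+MP and 318 to 344 in control libraries, and passed in none of the comparisons with control.

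Pfn1, profilin 1, which recharges monomers and brings them to filament ends, set LPS apart. It had 1026, 1065 and 1059 CPM in MP libraries, 818, 529.9 and 868 in LPS libraries, 1029.5, 1029 and 983 in LPS+MP libraries, and 1238, 1200.2 and 1131 in control libraries. LPS libraries were below all others, with replicate 2 the lowest. Pfn1 fell by 0.72 ± 0.13 with LPS (adjusted p = 0.000228), and by 0.50 without LPS replicate 2. It rose in LPS+MP against LPS cells by 0.49 ± 0.13 (adjusted p = 0.0101), a call lost with only the compared groups in the fit (0.49), and the rise was 0.27 without LPS replicate 2. Twf2, twinfilin 2, which binds monomers and caps ends, had 51.5, 63 and 57.4 CPM in MP libraries, 57.2, 32.4 and 54.3 in LPS libraries, 46.8, 41.4 and 45.9 in LPS+MP libraries, and 84.2, 81.5 and 78.8 in control libraries. Its falls were 0.79 ± 0.16 with LPS (adjusted p = 0.000386; -0.54 without LPS replicate 2) and 0.85 ± 0.16 with LPS+MP (adjusted p = 0.000174). The fall with MP (-0.50 ± 0.16, adjusted p = 0.0181) was lost without control replicate 1 or MP replicate 1 (-0.43 to -0.48).

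Gsn, gelsolin, which severs filaments and caps their growing ends, had the largest fall of the 43 genes with MP and with LPS. It (ENSMUSG00000026879, chromosome 2, 35279663 to 35307892, plus strand) had 124, 122 and 119 CPM in MP libraries, 134, 98.9 and 152 in LPS libraries, 80.9, 73.1 and 75.1 in LPS+MP libraries, and 441, 438 and 431 in control libraries. MP and LPS libraries overlapped each other, libraries with both agents were lower still, and all were far below control. Gsn fell at 2-fold by 1.84 ± 0.11 with MP (adjusted p = 1.31e-08), by 1.78 ± 0.11 with LPS (adjusted p = 1.67e-09) and by 2.50 ± 0.11 with LPS+MP (adjusted p = 1.75e-11), and these 3 calls held under each alternative run. Adding MP to LPS lowered it by 0.72 ± 0.11 (adjusted p = 0.000146), and adding LPS to MP by 0.66 ± 0.11 (adjusted p = 0.000114). Capg, the macrophage capping protein, a relative that caps but does not sever, had 1078, 1081 and 1101 CPM in MP libraries, 768, 601 and 733 in LPS libraries, 890.0, 847 and 805 in LPS+MP libraries, and 1172, 1066 and 1093 in control libraries. MP and control libraries overlapped for Capg (-0.03 ± 0.09, adjusted p = 0.819). It fell by 0.67 ± 0.09 with LPS (adjusted p = 6.94e-06) and by 0.39 ± 0.09 with LPS+MP (adjusted p = 0.000986).

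**Figure D3:**
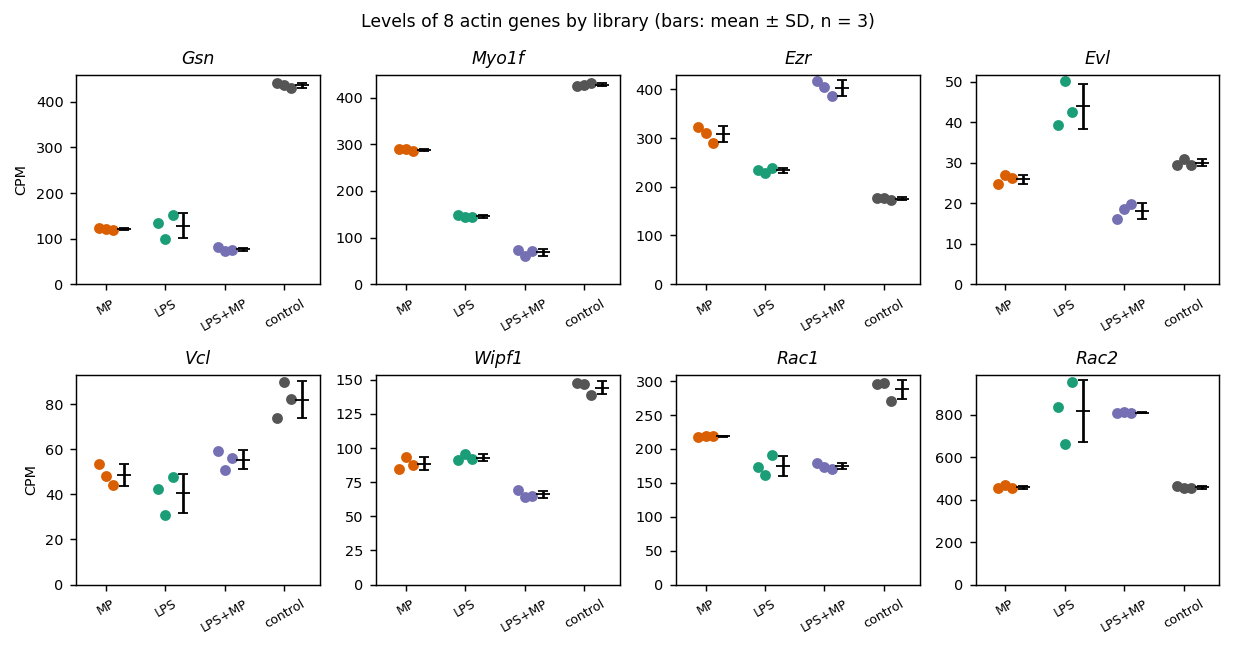
CPM of 8 actin genes in each library, with a bar for the mean and SD of the 3 libraries of a group. Gsn, Myo1f and Wipf1 are highest in control and lowest in LPS+MP cells, Ezr is lowest in control and highest in LPS+MP cells, Evl is highest in LPS and lowest in LPS+MP cells, and Rac2 is high in both groups given LPS while Rac1 is lower in all treated groups.

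Coronins bind filaments and help to remove Arp2/3 branches. Coro1b had 207, 199.5 and 211 CPM in MP libraries, 273, 249 and 282 in LPS libraries, 351, 329.8 and 309.8 in LPS+MP libraries, and 189.6, 185 and 183 in control libraries. Both groups given LPS lay above both groups without it, and LPS+MP above LPS. Coro1b rose by 0.52 ± 0.07 with LPS (adjusted p = 7.17e-06) and by 0.83 ± 0.07 with LPS+MP (adjusted p = 3.11e-08), and with MP its change was 0.15 ± 0.07, adjusted p = 0.0971. Its value is uncertain, as 20.8% of its 50-base stretches occur in Ptprcap. Smaller shares in other annotated genes were found for Cfl1 (19.1%), Arpc1b (12.8%), Rhoa (12.3%), Tpm4 (12.1%) and Arpc4 (10.5%), whose values carry the same limit. Coro1a, the coronin of leukocytes, had 871, 954 and 971 CPM in MP libraries, 1106, 866 and 1157 in LPS libraries, 1267, 1259 and 1203 in LPS+MP libraries, and 1228, 1130.3 and 1162 in control libraries. It did not pass with LPS or LPS+MP against control (-0.18 ± 0.10 and 0.08 ± 0.10), and its fall with MP (-0.33 ± 0.10, adjusted p = 0.0128) was lost without control replicate 1 or MP replicate 1 (-0.28 to -0.30). Coro1c, a family partner, went the other way from Coro1b in the groups given LPS. Mean Coro1c was 254 CPM in MP, 203 in LPS, 171 in LPS+MP and 411 in control libraries. Coro1c fell with MP (-0.69 ± 0.06, adjusted p = 7.67e-07). At 2-fold it fell with LPS (-1.01 ± 0.06, adjusted p = 1.29e-09) and LPS+MP (-1.26 ± 0.06, adjusted p = 5.85e-11). The alternative runs did not include Coro1c.

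Ena/VASP proteins and formins lengthen unbranched filaments. Vasp had 278, 346 and 361 CPM in MP libraries, 586, 419.9 and 545 in LPS libraries, 602, 580.3 and 522 in LPS+MP libraries, and 327, 304 and 310.3 in control libraries. Both groups given LPS lay above both groups without it, and Vasp rose by 0.70 ± 0.12 with LPS (adjusted p = 8.17e-05) and by 0.85 ± 0.12 with LPS+MP (adjusted p = 9.78e-06). Evl, its relative, had 24.7, 26.9 and 26.1 CPM in MP libraries, 39.3, 50.1 and 42.6 in LPS libraries, 16.1, 18.5 and 19.9 in LPS+MP libraries, and 29.5, 31 and 29.4 in control libraries (ENSMUSG00000021262, chromosome 12, 108554720 to 108688513, plus strand). The 4 groups did not overlap, with LPS+MP the lowest and LPS the highest. Evl rose by 0.53 ± 0.10 with LPS (adjusted p = 0.000364), and in LPS+MP against LPS cells it fell at 2-fold by 1.23 ± 0.10 (adjusted p = 3.16e-07), under each alternative run. The ratio of Vasp to Evl was 12.6 ± 1.3 in MP, 12 ± 3.3 in LPS, 31.7 ± 5.6 in LPS+MP and 10.5 ± 0.62 in control libraries (SD, n = 3 each). Fmnl1, a leukocyte formin, had 424, 411 and 400.1 CPM in MP libraries, 325, 233 and 333 in LPS libraries, 299, 295 and 290.0 in LPS+MP libraries, and 468, 489.6 and 468 in control libraries. It fell by 0.69 ± 0.10 with LPS (adjusted p = 2.83e-05) and by 0.69 ± 0.10 with LPS+MP (adjusted p = 2.58e-05), and with MP its change was -0.21 ± 0.10, adjusted p = 0.127. In LPS+MP against LPS cells the change of Fmnl1 was 0.01 ± 0.10, adjusted p = 0.967, and without LPS replicate 2 it was -0.16 and called (adjusted p = 0.0297).

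Myo1f, a class I myosin of leukocytes that links membrane to actin, had the largest fall of the 43 genes in LPS+MP against control cells. It (ENSMUSG00000024300, chromosome 17, 33555719 to 33607764, plus strand) had 289, 290.2 and 286 CPM in MP libraries, 148, 144 and 144 in LPS libraries, 73.8, 59.8 and 70.4 in LPS+MP libraries, and 425, 426 and 431 in control libraries. The 4 groups did not overlap, in the order LPS+MP, LPS, MP and control from low to high. Myo1f fell by 0.57 ± 0.07 with MP (adjusted p = 2.34e-05), and at 2-fold by 1.55 ± 0.07 with LPS (adjusted p = 5e-11) and 2.64 ± 0.07 with LPS+MP (adjusted p = 5.86e-14). Adding MP to LPS lowered it by 1.09 ± 0.07 (adjusted p = 2.5e-08), which was just short of 2-fold without LPS+MP replicate 2 (-0.9998), and adding LPS to MP by 2.07 ± 0.07 (adjusted p = 1.55e-12). Myh9, the heavy chain of the contractile non-muscle myosin IIA, fell by 0.44 ± 0.08 with LPS (adjusted p = 0.00031) and by 0.49 ± 0.08 with LPS+MP (adjusted p = 0.000112). Its fall with MP (-0.35 ± 0.08, adjusted p = 0.00414) was lost with quantile normalization (-0.13). Myl6, a myosin light chain gene, had 167, 247 and 278 CPM in MP libraries, 210.0, 175 and 200.5 in LPS libraries, 222, 192 and 192 in LPS+MP libraries, and 289, 297 and 265 in control libraries. MP replicate 1 was the lowest library of Myl6, and the change with MP was -0.33 ± 0.14, adjusted p = 0.0748. Myl6 fell by 0.54 ± 0.14 with LPS (adjusted p = 0.00343) and by 0.49 ± 0.14 with LPS+MP (adjusted p = 0.00608), with 53.2% of its 50-base stretches found in other annotated genes.

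Talin, vinculin and paxillin join actin to integrins. Vcl, vinculin (ENSMUSG00000021823, chromosome 14, 20929433 to 21033673, plus strand), had 53.6, 48.2 and 44.1 CPM in MP libraries, 42.4, 31 and 47.7 in LPS libraries, 59.1, 50.9 and 56.3 in LPS+MP libraries, and 73.7, 89.9 and 82.3 in control libraries. All treated libraries were below control, and those with both agents were above those with LPS alone. Vcl fell by 0.74 ± 0.13 with MP (adjusted p = 0.000419), at 2-fold by 1.02 ± 0.13 with LPS (adjusted p = 6.6e-06) and by 0.55 ± 0.13 with LPS+MP (adjusted p = 0.00163). The fall with LPS was short of 2-fold with quantile normalization (-0.98), with median-ratio scaling (-0.94) and without control replicate 2 or LPS replicate 2 (-0.85 to -0.95). Adding MP to LPS raised it by 0.47 ± 0.13 (adjusted p = 0.0125), by 0.29 without LPS replicate 2, a call lost with only the compared groups in the fit (0.47) and without LPS+MP replicate 1 (0.42). Pxn, paxillin, had 107, 99.6 and 86.7 CPM in MP libraries, 118, 87.5 and 128 in LPS libraries, 160.1, 149.9 and 148 in LPS+MP libraries, and 90.1, 99.5 and 92.4 in control libraries. LPS+MP libraries were above those of the other groups. Pxn rose by 0.69 ± 0.12 with LPS+MP against control (adjusted p = 7.36e-05) and by 0.47 ± 0.12 against LPS (adjusted p = 0.00536; 0.31 without LPS replicate 2), and its changes with MP and LPS alone were 0.05 ± 0.12, adjusted p = 0.762 and 0.22 ± 0.12, adjusted p = 0.107. Tln1, talin 1, which switches integrins on, fell by 0.48 ± 0.09 with LPS (adjusted p = 0.000207) and by 0.40 ± 0.09 with LPS+MP (adjusted p = 0.00092), and its fall with MP (-0.27 ± 0.09, adjusted p = 0.0239) was lost with quantile normalization (-0.20) and without control replicates 2 or 3 or MP replicates 2 or 3 (-0.23 to -0.29).

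Small GTPases decide where actin grows, and the Rac genes parted. Rac2, the Rac of blood cells, which also serves the NADPH oxidase, had 455, 467 and 454 CPM in MP libraries, 836, 663 and 954 in LPS libraries, 808, 813 and 809 in LPS+MP libraries, and 466, 457 and 453 in control libraries. Both groups given LPS lay above both groups without it, and MP and control libraries overlapped. Rac2 rose by 0.82 ± 0.10 with LPS (adjusted p = 2.93e-06) and by 0.82 ± 0.10 with LPS+MP (adjusted p = 2.23e-06), and did not pass with MP (adjusted p = 0.998). Rac1, the form of most cells, had 218, 219 and 219 CPM in MP libraries, 173, 161 and 191 in LPS libraries, 179.9, 174 and 171 in LPS+MP libraries, and 295, 297 and 271 in control libraries. All treated libraries were below control. Rac1 fell by 0.39 ± 0.07 with MP (adjusted p = 0.000419), by 0.72 ± 0.07 with LPS (adjusted p = 3.04e-07) and by 0.71 ± 0.07 with LPS+MP (adjusted p = 2.32e-07). The ratio of Rac2 to Rac1 was 2.1 ± 0.035 in MP, 4.64 ± 0.46 in LPS, 4.63 ± 0.13 in LPS+MP and 1.6 ± 0.067 in control libraries (SD, n = 3 each), and none of the 50-base stretches of either transcript occurs in the other.

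**Figure D4:**
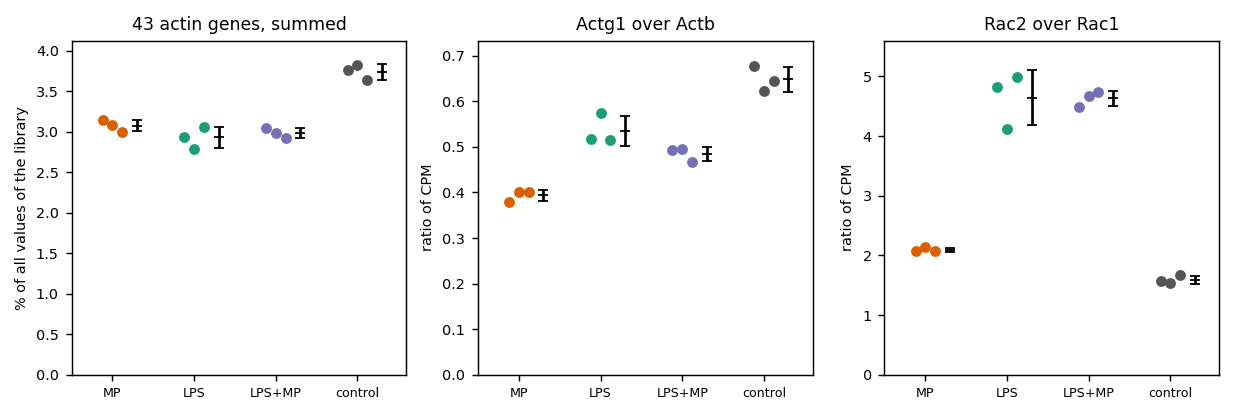
Left, the percentage of all values of a library taken by the 43 actin genes; middle and right, the ratios of CPM of Actg1 to Actb and of Rac2 to Rac1. Points are libraries and bars the mean and SD of 3. The percentage and the Actg1 ratio are highest in control cells, and the Rac2 ratio is over 4 in each library given LPS.

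Rhoa, the GTPase of contraction, had 516, 472 and 444 CPM in MP libraries, 315, 340.2 and 344 in LPS libraries, 389, 413 and 373 in LPS+MP libraries, and 498, 499.8 and 455 in control libraries. Libraries given LPS were below those without it. Rhoa fell by 0.54 ± 0.07 with LPS (adjusted p = 1.35e-05) and by 0.31 ± 0.07 with LPS+MP (adjusted p = 0.00194; -0.20 under median-ratio scaling), and with MP its change was -0.02 ± 0.07, adjusted p = 0.845. Cdc42, which acts on WASP, had 151 to 177 CPM in MP, 146 to 178 in LPS, 156 to 169.8 in LPS+MP and 181 to 206 in control libraries. Its falls of 0.24 ± 0.08 with LPS (adjusted p = 0.0215) and 0.24 ± 0.08 with LPS+MP (adjusted p = 0.0217) were small, the one with LPS being lost with median-ratio scaling (-0.16), with only the compared groups in the fit (-0.24) and without control replicate 2 or LPS replicate 1 (-0.17 to -0.19), and the one with LPS+MP with median-ratio scaling (-0.13) and without control replicate 2 or LPS+MP replicates 1 or 3 (-0.19 to -0.23). Vav1, an exchange factor for Rac that works below Fc receptors and integrins, had 284, 308 and 309 CPM in MP libraries, 429, 407 and 409.6 in LPS libraries, 375, 371 and 365 in LPS+MP libraries, and 247, 249.6 and 249 in control libraries. Every treated library was above every control library. Vav1 rose by 0.27 ± 0.06 with MP (adjusted p = 0.0023), by 0.74 ± 0.06 with LPS (adjusted p = 3.45e-08) and by 0.57 ± 0.06 with LPS+MP (adjusted p = 4.72e-07). Dock2, the Rac exchange factor of leukocytes, had 370.4, 349 and 335 CPM in MP libraries, 246, 245 and 257 in LPS libraries, 185, 190.1 and 185 in LPS+MP libraries, and 356, 385 and 355 in control libraries. Libraries with both agents were below those with LPS, and these were below MP and control. Dock2 fell by 0.55 ± 0.06 with LPS (adjusted p = 1.86e-06) and by a further 0.41 ± 0.06 in LPS+MP against LPS cells (adjusted p = 0.000121), and with MP alone its change was -0.06 ± 0.06, adjusted p = 0.508.

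Crosslinker and scaffold genes were lower in treated cells, none by 2-fold. Flna, filamin A, which joins filaments into a net, had 2038, 2040.1 and 2169.9 CPM in MP libraries, 2466, 2122 and 2316 in LPS libraries, 2081, 2021 and 2119 in LPS+MP libraries, and 3026, 3244 and 3469 in control libraries. Every treated library was below every control library. Flna fell by 0.64 ± 0.08 with MP (adjusted p = 2.83e-05; -0.40 under quantile normalization), by 0.50 ± 0.08 with LPS (adjusted p = 9.59e-05) and by 0.64 ± 0.08 with LPS+MP (adjusted p = 5.63e-06). Lcp1, L-plastin, the bundling protein of leukocytes, had 2284, 2099.7 and 2028 CPM in MP libraries, 2059, 2365 and 2152 in LPS libraries, 1896, 1823 and 1788 in LPS+MP libraries, and 2708, 2758 and 2628 in control libraries. It fell by 0.56 ± 0.08 with LPS+MP (adjusted p = 1.79e-05), while the falls with MP (-0.34 ± 0.08, adjusted p = 0.00384) and LPS (-0.30 ± 0.08, adjusted p = 0.00414) were lost, the one with MP with quantile normalization (-0.13) and the one with LPS with quantile normalization (-0.14). Iqgap1, a scaffold that binds Rac, Cdc42 and actin, fell by 0.53 ± 0.09 with LPS (adjusted p = 6.15e-05), and with MP its change was -0.14 ± 0.09, adjusted p = 0.214.

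ERM proteins fasten actin to the plasma membrane. Ezr, ezrin (ENSMUSG00000052397, chromosome 17, 6738041 to 6782784, minus strand), had 322, 311 and 290.2 CPM in MP libraries, 234, 229 and 239 in LPS libraries, 417, 404 and 385 in LPS+MP libraries, and 178, 176 and 173 in control libraries. The 4 groups did not overlap, in the order control, LPS, MP and LPS+MP from low to high. Ezr rose by 0.80 ± 0.06 with MP (adjusted p = 1.47e-07), by 0.41 ± 0.06 with LPS (adjusted p = 3.62e-05) and, at 2-fold, by 1.19 ± 0.06 with LPS+MP (adjusted p = 1.18e-10). Adding MP to LPS raised it by 0.78 ± 0.06 (adjusted p = 1.67e-07). Msn, moesin, the higher of the pair per kb of transcript in each group, had 1748, 1609.8 and 1570.3 CPM in MP libraries, 1596, 1887 and 1562 in LPS libraries, 2106, 2037 and 1999.9 in LPS+MP libraries, and 1431, 1477 and 1373 in control libraries. Msn rose by 0.52 ± 0.08 with LPS+MP (adjusted p = 5.47e-05; 0.34 under quantile normalization), its change with MP was 0.20 ± 0.08, adjusted p = 0.0693, and its rise with LPS (0.23 ± 0.08, adjusted p = 0.0253) was lost with quantile normalization (0.04), with only the compared groups in the fit (0.23) and without control replicates 1 or 3 or LPS replicate 2 (0.15 to 0.23). In LPS+MP against MP cells the rise of Msn (0.32 ± 0.08, adjusted p = 0.00458) was lost and turned with quantile normalization (-0.02). Rdx, radixin, the ERM gene that is not among the 43, fell by 0.45 ± 0.09 with LPS+MP against control (adjusted p = 0.000621). Rdx also fell with LPS (-0.30 ± 0.09, adjusted p = 0.0113), and its change with MP was -0.23 ± 0.09, adjusted p = 0.067.

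Tropomyosins lie along filaments and affect which other proteins bind. Tpm4 had 413, 416 and 406 CPM in MP libraries, 427, 527 and 464 in LPS libraries, 384, 412 and 405 in LPS+MP libraries, and 634, 626 and 577 in control libraries. No treated library reached control. Tpm4 fell by 0.57 ± 0.08 with MP (adjusted p = 3.66e-05), by 0.38 ± 0.08 with LPS (adjusted p = 0.000544) and by 0.61 ± 0.08 with LPS+MP (adjusted p = 4.05e-06). Tpm3 fell by 0.31 ± 0.07 with LPS (adjusted p = 0.0011), and with MP its change was -0.06 ± 0.07, adjusted p = 0.506, while 62.4% of its 50-base stretches occur in the related gene Tpm3-rs7. The ratio of Tpm4 to Tpm3 was 1.69 ± 0.088 in MP, 2.31 ± 0.34 in LPS, 1.77 ± 0.041 in LPS+MP and 2.41 ± 0.17 in control libraries (SD, n = 3 each).

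Whether MP acted alike with and without LPS was tested by the difference of its changes, LPS+MP against LPS minus MP against control, which share no library. The difference passed for 13 of the 43 genes upward and 4 downward, where 6.45% of all genes passed upward and 15.5% downward. Under quantile normalization it passed for 7 upward and 4 downward, with no share of all genes given for that scaling. As deposited, the median difference was 0.24 over the 43 genes, beside -0.08 over all genes. At 2-fold were 2 upward, Vcl (1.21 ± 0.19, adjusted p = 0.000294) and Gsn (1.12 ± 0.16, adjusted p = 0.00014), and 1 downward, Evl (-1.03 ± 0.15, adjusted p = 0.000153), where 1.02% and 3.68% of all genes passed. For Vcl the change with MP was 0.47 ± 0.13 with LPS and -0.74 ± 0.13 without it, opposite in sign. For Gsn it was -0.72 ± 0.11 with LPS and -1.84 ± 0.11 without it, and the difference was short of 2-fold without LPS replicate 2 (0.94). For Evl it was -1.23 ± 0.10 with LPS and -0.20 ± 0.10 without it, and the difference was short of 2-fold with quantile normalization (-0.90), with median-ratio scaling (-0.96) and without MP replicate 2, LPS replicate 2 or LPS+MP replicate 1 (-0.93 to -0.9985).

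Actg1 differed upward too (0.76 ± 0.12, adjusted p = 0.00029), with changes of -0.09 ± 0.08 with LPS and -0.85 ± 0.08 without it, a call lost with quantile normalization (0.31). Cfl1 (0.58 ± 0.12, adjusted p = 0.00312; 0.38 under quantile normalization), Coro1a (0.60 ± 0.14, adjusted p = 0.00544) and Rac1 (0.39 ± 0.10, adjusted p = 0.00997) differed upward, and Myo1f (-0.52 ± 0.10, adjusted p = 0.00196), Vav1 (-0.43 ± 0.08, adjusted p = 0.00188) and Dock2 (-0.36 ± 0.09, adjusted p = 0.00964) downward, under each alternative run. Ezr had rises of 0.78 ± 0.06 with LPS and 0.80 ± 0.06 without it, and their difference was -0.02 ± 0.09, adjusted p = 0.871.

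**Figure D5:**
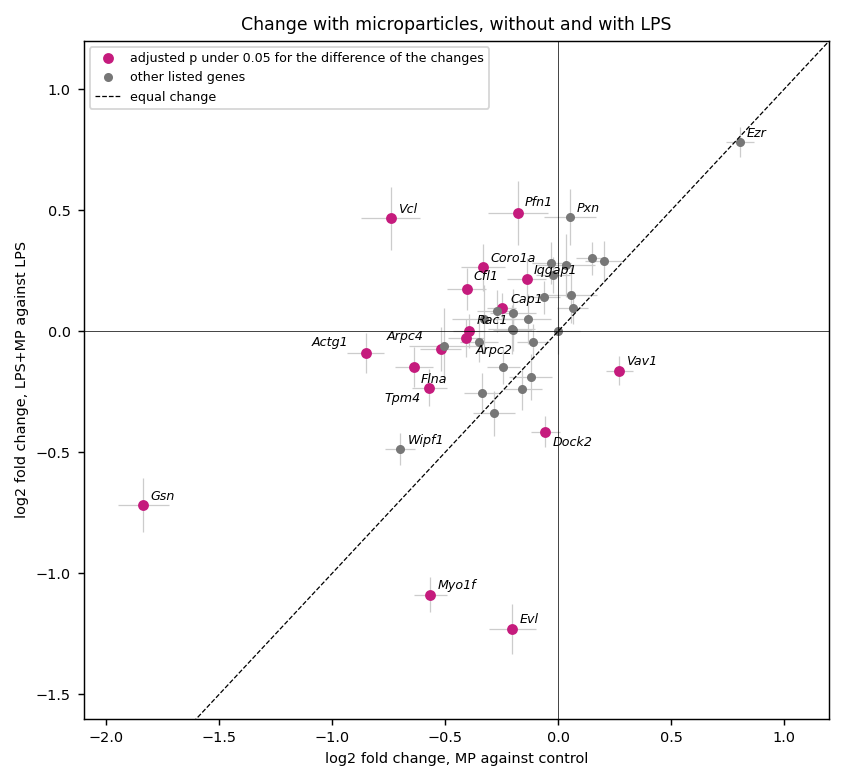
Log2 fold change with microparticles in cells without LPS (MP against control, horizontal) and with LPS (LPS+MP against LPS, vertical) for the 43 genes, with standard errors as bars and a dashed line of equal change. Ezr sits near the line, Vcl, Gsn and Actg1 above it, and Evl and Myo1f below it.

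Of 156 further actin genes listed by function, 132 were tested. With MP 18 of the 132 rose and 46 fell, where 20.6% of all genes rose and 18.3% fell, and at 2-fold 2 rose and 2 fell, where 1.82% of all genes rose and 1.85% fell. Cyfip2, a subunit of the WAVE complex, had 143, 119 and 95.8 CPM in MP libraries, and 44.1, 50.7 and 41 in control libraries, with no overlap, and rose by 1.37 ± 0.12 (adjusted p = 4.37e-07). The profilin gene Pfn2 rose by 1.93 ± 0.19, and the Rac exchange factor gene Tiam1 and the myosin light chain kinase gene Mylk fell by 1.23 ± 0.13 and 1.45 ± 0.18. Mylk is near the floor, with means of 0.69 CPM in MP, 0.57 in LPS, 0.21 in LPS+MP and 3.63 in control libraries. It may have passed the filter of 1 CPM through control libraries alone, and its fall would then follow in part from that selection. With LPS 38 of the 132 rose and 57 fell, where 26.6% of all genes rose and 35.6% fell, and at 2-fold 15 rose and 17 fell, where 8.3% of all genes rose and 8.05% fell. Marcksl1, which encodes an actin-binding protein of the membrane, had 925, 609.9 and 801 CPM in LPS libraries, and 125, 128 and 115 in control libraries and rose by 2.64 ± 0.12. Cdc42ep2, an effector of Cdc42, and the formin gene Fmnl2 rose by 2.57 ± 0.10 and 1.73 ± 0.09, and Racgap1, which acts in cell division, fell by 2.82 ± 0.08.

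In LPS+MP against control cells 39 of the 132 rose and 56 fell, where 27.7% of all genes rose and 38.6% fell, and at 2-fold 15 rose and 22 fell, where 8.52% of all genes rose and 12.3% fell. Set against MP cells, in LPS+MP cells 48 of the 132 rose and 48 fell, where 19% of all genes rose and 36.6% fell, and at 2-fold 6 rose and 12 fell, where 5.71% of all genes rose and 7.88% fell. In LPS+MP against LPS cells 30 of the 132 rose and 36 fell, where 13% of all genes rose and 22.2% fell, and at 2-fold 3 rose and 5 fell, where 0.63% of all genes rose and 3.89% fell. Rhob, which encodes a GTPase of endosomes, had 253, 279 and 252 CPM in MP libraries, 77.6, 62.3 and 79.4 in LPS libraries, 210.5, 203 and 210.0 in LPS+MP libraries, and 255, 260.4 and 249 in control libraries. LPS libraries alone were low. Rhob rose by 1.502 ± 0.08 in LPS+MP against LPS cells (adjusted p = 3.96e-09), and the change with MP differed between cells with and without LPS by 1.47 ± 0.12 (adjusted p = 9.81e-07). Racgap1, Ect2 and Anln, which act in cytokinesis, fell by 1.77 ± 0.08, 2.21 ± 0.17 and 1.79 ± 0.15 in that comparison, and the Cdc42 exchange factor gene Fgd2 by 1.53 ± 0.15.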

How the data were processed

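Polyadenylated RNA from 12 J774A.1 libraries had been made into libraries with a directional kit, per the labels' protocols. The submitters' processing notes name edgeR, DESeq2, HTSeq, TopHat2 2.1.1, Trimmomatic 0.36 and FastQC 11.5, without saying what each did; the genome build and the strand setting of the counting are not stated in those sources. The authors deposited 12 columns headed RPKM, read here as CPM because each sums to between 998867 and 999273 over 11762 genes, and a logCPM column, read as log2 CPM averaged over libraries by the authors and not used in tests. Design and alternatives had been written for RPKM values and were applied to these. Depth is unknown, so no counting error is given. Coordinates are the table's; 11651 of its 11655 transcripts found in GENCODE M21 (GRCm38) overlap their place in that build.

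Here, 17 genes with fewer than 3 libraries at 1 CPM or more were removed, and group means of log2(CPM + 1) were compared with limma 3.58.1 in R 4.3.3, using a variance trend and no block, after testing the procedure on simulated data. The labels give replicate numbers without saying that they pair samples. Any of the 43 genes, their family partners and the regulators Srf, Mkl1 and Mkl2 could be named; further actin genes were named if called at 2-fold, at most 5 per comparison by adjusted p. The 43 genes, the other lists and the motif were chosen with earlier results of these data known. Transcript lengths and shared 50-base stretches were computed from GENCODE M21. Alternatives, run for the 43 genes only, were another pseudocount (0.1), other filters (none, or 5 CPM), 2 scalings, a replicate block, no variance trend, fits of the compared groups alone, and leaving out each library in turn.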

Additional observations from a re-analysis of the deposited data

Results flagged for a closer look

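For 17 of the 43 genes the change with microparticles differed between cells with and without LPS, by a test of the difference itself (limma, adjusted p under 0.05 over all genes tested), 13 upward and 4 downward, where 6.45% of all genes passed upward and 15.5% downward. Each value is the change in LPS+MP against LPS cells minus that in MP against control cells, on the log2 scale. Upward differences were those of Vcl (1.21), Gsn (1.12), Actg1 (0.76), Pfn1 (0.67), Coro1a (0.60), Cfl1 (0.58), Flna (0.49), Arpc4 (0.45), Rac1 (0.39), Arpc2 (0.38), Iqgap1 (0.35), Cap1 (0.34) and Tpm4 (0.34). Downward differences were those of Evl (-1.03), Myo1f (-0.52), Vav1 (-0.43) and Dock2 (-0.36). LPS replicate 2 enters all of them, and without it the value was 0.44 for Pfn1, 0.94 for Gsn and -0.93 for Evl. Several calls ended under an alternative. For Arpc2 the call ended with quantile normalization (0.31) and without control replicates 1 or 2, MP replicates 2 or 3 or LPS+MP replicates 1 or 2 (0.34 to 0.39). For Arpc4 it ended without control replicate 1, MP replicate 1 or LPS+MP replicate 1 (0.39 to 0.44). Flna lost it with quantile normalization (0.09), Cap1 with quantile normalization (0.16) and Pfn1 with quantile normalization (0.45). Iqgap1 lost it with quantile normalization (0.10), with a replicate block (0.35), with no variance trend (0.35) and without control replicates 1, 2 or 3, MP replicates 2 or 3, LPS replicates 1 or 3 or LPS+MP replicates 1, 2 or 3 (0.28 to 0.39). Tpm4 lost it with quantile normalization (0.23), with no variance trend (0.34) and without control replicates 1 or 2, MP replicates 1, 2 or 3, LPS replicates 1 or 3 or LPS+MP replicates 2 or 3 (0.27 to 0.34).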

How the results depend on the processing

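Counts are of the 43 genes, with no size threshold unless 2-fold is named. Shares of all genes called are not given for these alternatives. With quantile normalization 4 rose with MP, 22 fell in LPS+MP against MP, and for the difference of the changes with MP 7 passed upward and 0 downward at 2-fold. With median-ratio scaling 6 fell in LPS+MP against LPS, 9 in LPS+MP against MP, and 0 differed downward at 2-fold. With only the compared groups in the fit 4 rose with MP, and 3 rose and 6 fell in LPS+MP against LPS. Leaving out single libraries gave 2 to 4 rises and 15 to 26 falls with MP, 4 to 12 rises, 6 to 12 falls and 1 to 2 falls at 2-fold in LPS+MP against LPS, 12 to 18 falls in LPS+MP against MP, and at 2-fold 1 to 2 upward and 0 to 1 downward differences. Leaving LPS replicate 2 out of comparisons that do not use it was chosen after seeing the data. Signs that turned were those of Actb in LPS+MP against control (0.0387) and against MP (0.42) and Msn in LPS+MP against MP (-0.0226) with quantile normalization, and of Fmnl1 in LPS+MP against LPS, which was -0.16 without LPS replicate 2 and up to 0.10 without another library. The cause was not tested. A replicate block, over numbers that only label the samples (same-numbered libraries deviated together with a median r of 0.018 over 18 pairs, and 3 of 12 libraries had their highest correlation with their own number), left every count within 1.5 times, for example 20 falls with MP and 12 upward differences. The calls kept under all alternatives run were 13 of 21 with MP, 29 of 35 with LPS, 31 of 37 with LPS+MP, 8 of 19 in LPS+MP against LPS, 15 of 23 in LPS+MP against MP and 7 of 17 for the difference. In these counts a gene called at 2-fold was taken as not kept where it fell short of that size, even with an adjusted p under 0.05. Depth is unknown, so which small changes it hides cannot be told.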
